A study of Mus musculus with 8 samples.

Results

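The genes described here are Cttn, Actn1, Tpm1, Myo9b and Coro1b, which all code for proteins of the actin cytoskeleton. They were chosen by gene name, as every row of these 5 genes in the deposited splicing tables, after earlier results of the same data were known. The members were thus selected on measured splicing values, and the values below are a description with no test of their own. The 5 genes hold 6 of the 862 listed local splicing variations, from 354 genes, and 7 of the 498 listed junction usage events, from 414 named genes.

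The samples were primary hepatocytes from C57BL/6J mice with floxed alleles of Srsf3, kept in culture, so that both groups carried the floxed gene. In 4 samples the cells received, for 48 h, adeno-associated virus (AAV) carrying Cre recombinase, which cuts out the floxed part of Srsf3 (labelled Srsf3-KO). In the other 4 samples they received a virus for green fluorescent protein, GFP (labelled Srsf3-flox). The promoters of the viruses, the age and sex of the mice and whether the samples of a group came from separate mice are not stated in the sources used here. SRSF3 is an SR protein that binds RNA and regulates splicing. The group PSI of the junction that joins exon 1 to exon 2 of Srsf3 was 0.998 in AAV-GFP against 0.157 in AAV-Cre, which checks the labels.

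Actin filaments give cells their shape and line the bile canaliculi at the apical side of hepatocytes. Cortactin (Cttn) holds branched filaments made by the Arp2/3 complex together, and its tandem repeats bind the filament. Coronin 1B (Coro1b) acts on the same branches and promotes their release. Alpha-actinin-1 (Actn1) crosslinks filaments, tropomyosin 1 (Tpm1) runs along them and sets which proteins can bind, and myosin IXb (Myo9b) is a motor that moves along them. Actn1 and Tpm1 are textbook cases of exons that differ between smooth muscle and other cells.

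The measure was percent spliced in (PSI), the share of one junction among the junctions that leave or enter the same exon, from 0 to 1. A local variation is such a set of junctions. Each group had 1 deposited value per junction, so neither the spread between samples nor the read depth behind a value is known, and no SD can be given. A variation counted as changed when the deposited change of at least 1 junction was 0.2 or more in size. All 6 variations of the 5 genes changed by this rule, beside 95.2% of all listed variations, so this count says nothing particular about them. Of their 18 junctions, 5 were higher in AAV-Cre by at least 0.2 and 5 lower, while 5 others stayed under a PSI of 0.05 in both groups and reached 0.013 at most. The same counts were not made over all 6866 listed junctions, so they do not set the 5 genes apart.

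**Figure D1:**
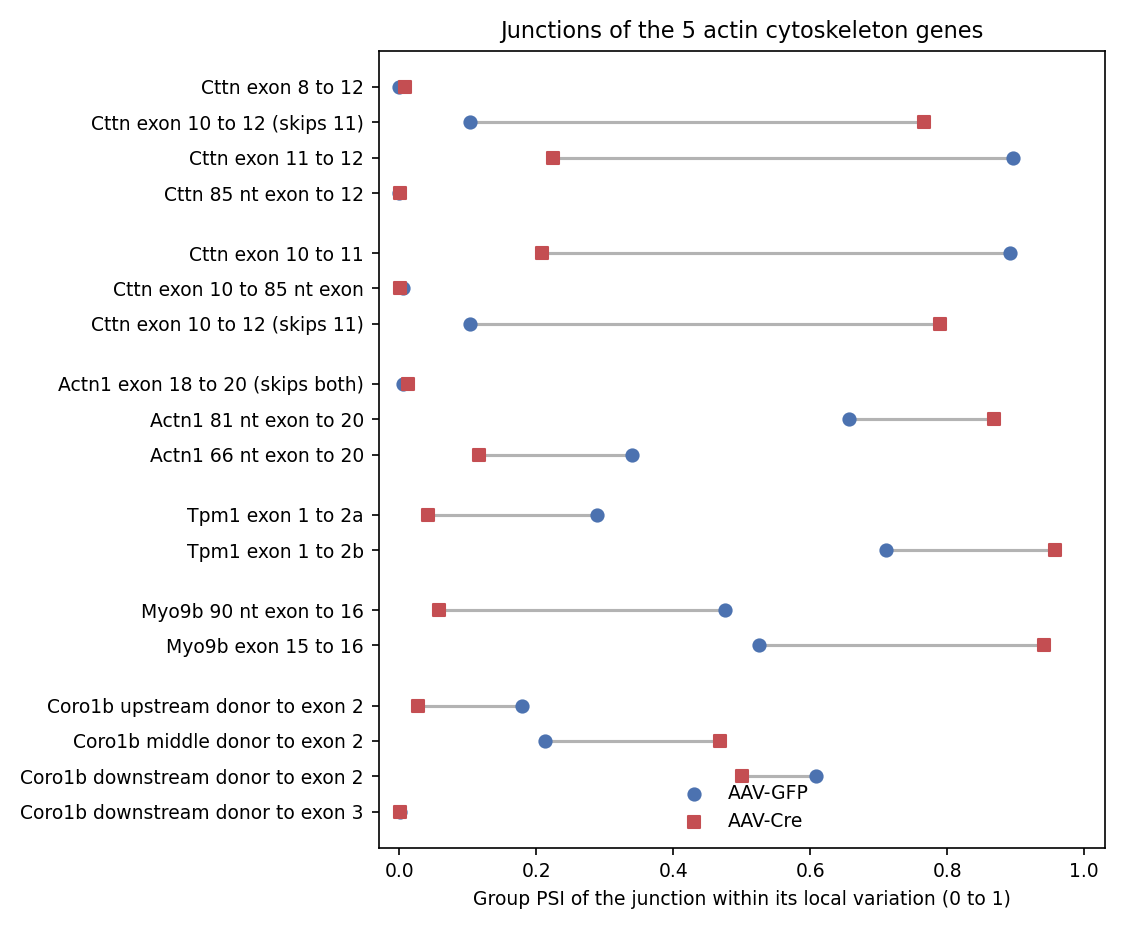
Group PSI of each of the 18 junctions (horizontal axis, 0 to 1) in AAV-GFP (circles) and AAV-Cre (squares), with 1 row per junction and a gap between variations; each point is 1 deposited group value with no error bar. The widest gaps are those of Cttn around exon 11, where the junction that skips it went from 0.103 to 0.766.

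Cortactin showed the largest change of the 5 genes, a switch from inclusion to skipping of exon 11. This exon (chromosome 7, 144450978 to 144451088, minus strand, mm10) is fully coding and has 111 nt, or 37 codons, so that skipping it keeps the reading frame. It is one of a row of exons that code for the filament-binding repeats. In the longer of the main coding transcripts, whose exon numbers are used here, exons 8, 9, 10 and 11 have 111 nt each and start in the same codon phase, and exons 6 to 12 together hold 666 nt, which is 6 units of that length. The sequences of exons 8 to 11 are shown because they show which unit is lost. They are written 5′ to 3′ on the transcript strand from GENCODE vM21 transcripts (GRCm38, the assembly of mm10), and capitals mark the bases that are the same in all 4 exons.
Exon 8: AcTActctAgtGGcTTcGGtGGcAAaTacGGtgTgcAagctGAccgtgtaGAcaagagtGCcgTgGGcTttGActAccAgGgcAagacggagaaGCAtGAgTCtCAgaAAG
Exon 9: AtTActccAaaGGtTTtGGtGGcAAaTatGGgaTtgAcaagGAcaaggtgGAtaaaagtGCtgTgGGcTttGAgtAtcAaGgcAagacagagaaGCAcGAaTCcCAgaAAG
Exon 10: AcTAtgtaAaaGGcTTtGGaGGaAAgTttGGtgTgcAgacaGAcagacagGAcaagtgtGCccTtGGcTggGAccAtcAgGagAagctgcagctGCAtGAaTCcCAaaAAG
Exon 11: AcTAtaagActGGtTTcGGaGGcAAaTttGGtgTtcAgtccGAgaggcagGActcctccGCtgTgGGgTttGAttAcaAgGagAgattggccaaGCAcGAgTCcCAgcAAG

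All 4 exons shared 47 of their 111 bases without any gap. Between pairs of them 60.4% to 73.9% of the bases were the same, and exon 11 matched exons 8 to 10 at 60.4% to 64.0%. The repeat continues in pieces on both sides. Exon 7, of 55 nt, matched the last 55 nt of exons 8 to 11 at 65.5% to 81.8%, and exon 12, of 56 nt, matched their first 56 nt at 60.7% to 73.2%. Exon 6 has the same length, and 22.5% to 29.7% of its bases were the same when set against exons 8 to 11 without a shift. That cannot show whether exon 6 holds a repeat, as it starts in codon phase 0 and exons 8 to 11 in phase 2. No shifted comparison was made.

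Among the junctions that leave exon 10, the junction into exon 11 stood at an authors' group PSI of 0.891 in AAV-GFP against 0.208 in AAV-Cre. The junction from exon 10 straight to exon 12 went the other way, from 0.104 to 0.790 (authors' deposited table). Seen from exon 12, the junction from exon 11 had 0.896 in AAV-GFP against 0.224 in AAV-Cre, and the one from exon 10 had 0.103 and 0.766. Both variations thus gave exon 11 a high usage in AAV-GFP and a low usage in AAV-Cre. Their inclusion junctions lie on the 2 sides of exon 11. The skipping junction is the same in both, so the variations are not independent. The deposited changes, AAV-Cre minus AAV-GFP, were -0.698 and -0.684 for the inclusion junctions and 0.703 and 0.676 for the skipping junction.

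Other routes around exon 11 were hardly used. An exon of 85 nt that only a non-coding transcript holds (144449937 to 144450021) was reached from exon 10 at a group PSI of 0.005 in AAV-GFP against 0.001 in AAV-Cre. A junction from exon 8 to exon 12, which would drop 3 repeat exons and is not annotated, was listed at 0 in AAV-GFP against 0.008 in AAV-Cre. Exon 11 was therefore the repeat exon whose usage differed in these variations, and no variation around exons 6 to 9 was listed apart from that junction.

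By junction usage the same exon was listed as a cassette exon with a change of -0.489 (authors' deposited table), where it did not pass (q = 0.344 by JUM). The direction was that of the local variations. Since the same libraries lie behind both tables, this is no independent measurement.

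**Figure D2:**
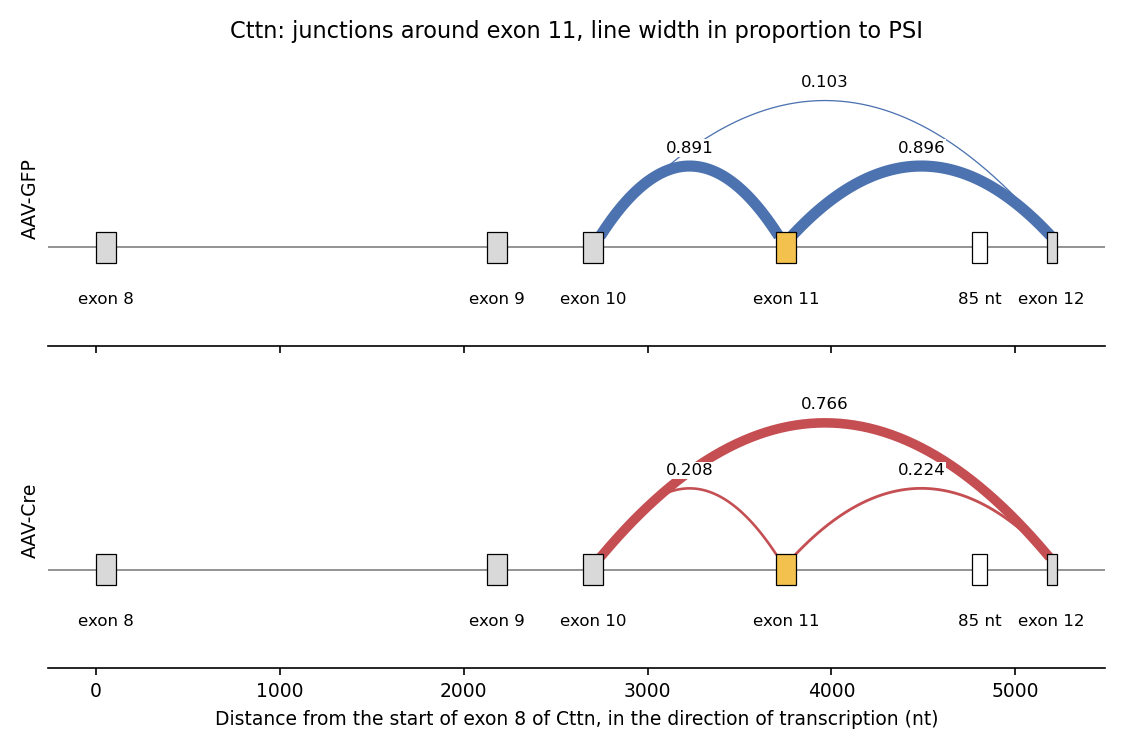
Exons 8 to 12 of Cttn to scale (boxes, exon 11 in yellow) against distance in nt from the start of exon 8, with arcs for 3 junctions whose width is in proportion to the group PSI printed on them; upper panel AAV-GFP, lower panel AAV-Cre. The short arcs carry 0.891 and 0.896 in AAV-GFP and 0.208 and 0.224 in AAV-Cre, and the long arc that skips exon 11 goes from 0.103 to 0.766.

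Alpha-actinin-1 and tropomyosin 1 each have a pair of exons known as mutually exclusive. In both genes the junction of the smooth muscle exon had a lower group PSI in AAV-Cre. In Actn1 these exons code for part of the calcium-binding EF-hand region. The exon of 81 nt (chromosome 12, 80170686 to 80170766, minus strand) is known as the non-muscle exon, and the protein that holds it binds calcium. The exon of 66 nt (80170183 to 80170248) is known as the smooth muscle exon. Both are fully coding, with 27 and 22 codons, and each is exon 19 of a coding transcript, between exons 18 and 20, in frame. Their sequences are shown to let the exclusive exons be compared, with capitals for bases that are the same in both after alignment.
Actn1 81 nt exon: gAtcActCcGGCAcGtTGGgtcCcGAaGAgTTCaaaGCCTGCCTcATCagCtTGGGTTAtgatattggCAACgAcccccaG
Actn1 66 nt exon: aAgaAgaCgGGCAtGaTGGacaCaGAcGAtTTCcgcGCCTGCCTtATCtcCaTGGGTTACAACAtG

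In the alignment 44 of the 66 bases of the smooth muscle exon matched the non-muscle exon (66.7%). Among the junctions that enter exon 20, the one from the 81 nt exon reached a group PSI of 0.656 in AAV-GFP against 0.869 in AAV-Cre. The junction from the 66 nt exon had 0.340 in AAV-GFP against 0.117 in AAV-Cre (authors' deposited table). A junction from exon 18 to exon 20, which bypasses both, had 0.005 and 0.013. The ratio of the non-muscle to the smooth muscle junction was 1.93 in AAV-GFP against 7.43 in AAV-Cre. The deposited changes were 0.199 and -0.213, just around the size of 0.2, and of all the 439 variations outside dense windows (windows of 100 kb with 8 or more variations) 406 had a larger change. An mRNA with both exons in a row would count here as the 66 nt exon, which lies next to exon 20.

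The same pair was listed by junction usage as mutually exclusive exons. The authors' deposited table gave a change of -0.190 for the 66 nt exon and 0.190 for the 81 nt exon, which did not pass (q = 0.466 by JUM).

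In Tpm1 the pair is formed by exons 2a and 2b, which code for a stretch near the start of the coiled coil. Exon 2a (chromosome 9, 67048124 to 67048249, minus strand) is known from smooth muscle, and exon 2b (67047786 to 67047911) from striated muscle and most other cells. Both have 126 nt, or 42 codons, and are fully coding. They are printed as they show how far exons 2a and 2b differ, with capitals for the bases that are the same at the same position.
Tpm1 exon 2a: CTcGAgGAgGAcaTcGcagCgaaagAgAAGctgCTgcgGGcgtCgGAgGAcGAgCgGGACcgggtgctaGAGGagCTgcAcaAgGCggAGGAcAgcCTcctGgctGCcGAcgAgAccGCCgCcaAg
Tpm1 exon 2b: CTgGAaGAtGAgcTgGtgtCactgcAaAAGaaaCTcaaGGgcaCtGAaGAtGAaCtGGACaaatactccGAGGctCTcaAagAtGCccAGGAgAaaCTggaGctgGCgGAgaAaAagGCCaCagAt

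The Tpm1 exons share 60 of 126 bases (47.6%), fewer than the repeat exons of Cttn, and their GC content is 68.3% in exon 2a and 50.0% in exon 2b. Exon 1 was joined to exon 2a at a group PSI of 0.289 in AAV-GFP against 0.042 in AAV-Cre. The junction from exon 1 to exon 2b had 0.711 in AAV-GFP against 0.958 in AAV-Cre (authors' deposited table), a deposited change of 0.255. The ratio of 2b to 2a was thus 2.46 in AAV-GFP against 22.8 in AAV-Cre. As an annotated transcript holds both exons in a row, an mRNA of that kind counts as exon 2a here.

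Junction usage gave 2 events of Tpm1. At exon 3 (67035995 to 67036128) the event compared junctions from exon 2a, from exon 2b and from exon 1b, the first exon of the shorter tropomyosins that start at an internal promoter. The authors' deposited table held -0.052 for the change of exon 2a, -0.00168 for exon 2b and 0.0537 for exon 1b, which did not pass (q = 0.519 by JUM). Here the junction from exon 1b is part of the whole, so the shares cannot be set beside those of the variation at exon 1. The other event covered the junctions from exon 1 to exons 2a and 2b, and both of its changes were listed as infinite in the authors' deposited table (q = 0.563), so it has no usable size.

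**Figure D3:**
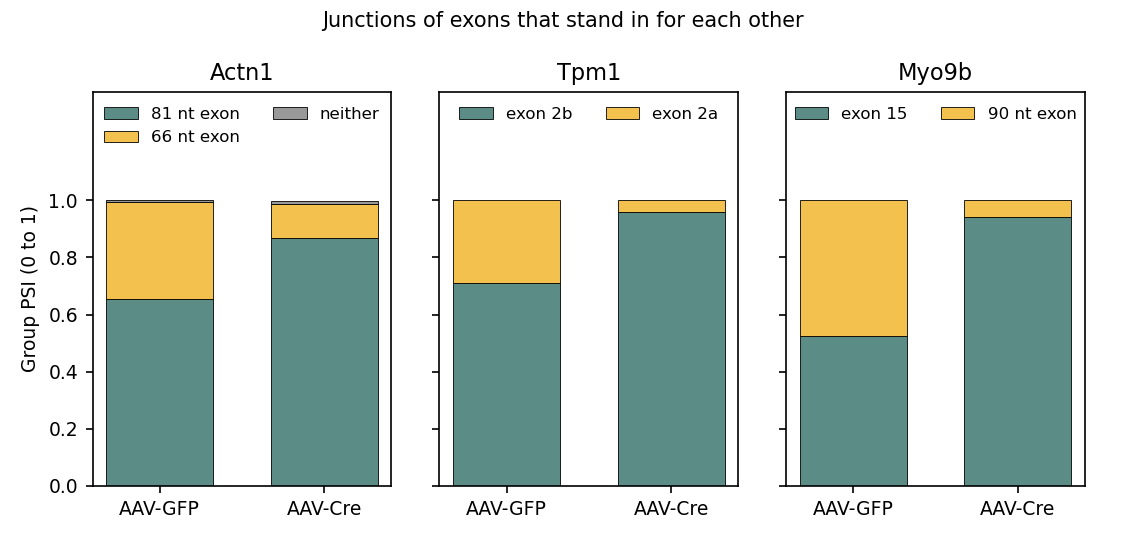
Stacked bars of group PSI (vertical axis, 0 to 1) for junctions of exons joined to the same neighbouring exon in Actn1, Tpm1 and Myo9b. There is 1 bar per group, with no error bars since each part is 1 deposited value. In each gene the yellow part is smaller in AAV-Cre: 0.340 to 0.117 for the 66 nt exon of Actn1, 0.289 to 0.042 for exon 2a of Tpm1 and 0.475 to 0.058 for the 90 nt exon of Myo9b.

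In bulk RNA, a lower share of cells that use an exon and a lower use within the cells cannot be told apart. This matters for exons known from smooth muscle, as cultures of hepatocytes can hold stellate cells and myofibroblasts. The deposited tables hold no expression levels, so how many such cells each sample held was not tested. Of 9 markers of stellate cells or myofibroblasts, among them Acta2, Des and Tagln, 0 were listed in either table. None of the 8 hepatocyte markers were listed either, and of the 22 markers of endothelial cells, macrophages, cholangiocytes and lymphocytes only Cd68 was. Whether a marker is listed says nothing of its level.

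Myosin IXb was listed at 2 places. At the first, which was called changed, exon 15 was joined to exon 16 more in AAV-Cre, and an exon of 90 nt less. This exon (chromosome 8, 71336876 to 71336965, plus strand) lies between exons 14 and 15 and is annotated only in a non-coding transcript, while exon 15 (71338907 to 71339020, 114 nt or 38 codons) is in the 4 transcripts that span it with a coding sequence. The sequences of both are shown because each is joined to exon 16, with capitals for CATC, a short sequence known as bound by SRSF3.
Myo9b 90 nt exon: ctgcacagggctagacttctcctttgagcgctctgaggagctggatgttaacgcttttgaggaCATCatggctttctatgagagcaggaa
Myo9b exon 15: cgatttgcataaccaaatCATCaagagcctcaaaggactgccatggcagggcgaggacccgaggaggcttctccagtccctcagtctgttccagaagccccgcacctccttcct

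Among the junctions that enter exon 16 (71340760 to 71340799), the one from the 90 nt exon stood at a group PSI of 0.475 in AAV-GFP against 0.058 in AAV-Cre. The junction from exon 15 had 0.525 in AAV-GFP against 0.942 in AAV-Cre (authors' deposited table), a deposited change of 0.432. In AAV-GFP both junctions were thus used at near equal shares (a ratio of 1.11), against 16.2 to 1 in favour of that from exon 15 in AAV-Cre. The junction from the 90 nt exon to exon 16 is not annotated, as that transcript joins the 90 nt exon to exon 15, and an mRNA of that kind counts as exon 15 here. It is 1 of the 3 junctions of the 5 genes that the annotation lacks and the only one of these with a PSI above 0.013.

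The 90 nt exon holds 30 codons, so its length keeps the frame. Read in the frame that exon 14 hands on to exon 15, its 29 whole codons held 0 stop codons, and neither of the 2 codons across its junctions with exons 14 and 16 was one. If exon 14 is joined to either exon, an exchange would replace 90 bases by 114 with the frame kept on paper. No local variation of the junctions that leave exon 14 was listed, so such an exchange was not seen. The annotation gives the 90 nt exon no coding sequence.

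By junction usage the stretch from exon 14 to exon 16 was listed as a composite event, which did not pass (q = 0.215 by JUM, authors' deposited table). Of its 8 values 6 were infinite or not numbers, and the finite ones were -0.0633 and 0.0633 (authors' deposited table). The table does not say which junctions these belong to, so they cannot be set beside the change of 0.432.

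The second place, listed by junction usage alone, is a pair of donors (5' splice sites) 6 nt apart, and its event did not pass. The exon starts at 71350135 and ends at 71350195 (61 nt) or at 71350189 (55 nt) in annotated coding transcripts. It is shown because the choice adds or removes 2 codons' worth of bases, in capitals.
Myo9b 61 nt exon: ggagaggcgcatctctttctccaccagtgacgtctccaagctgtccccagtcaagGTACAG

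The extra bases begin with GT, as a donor does. By junction usage the upstream donor had a change of 0.477 and the downstream donor one of -0.477 (authors' deposited table, q = 0.223 by JUM). No local variation was listed there.

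Coronin 1B was the only one of the 5 genes with a junction usage event that passed (a q-value no higher than 0.05 with a change of 0.1 or more). This event was retention of intron 1, of 605 nt (chromosome 19, 4148737 to 4149341, plus strand), with a change of 0.449 in the authors' deposited table (q = 0.0343 by JUM). Of the 7 events of the 5 genes 1 passed, beside 11.4% of all listed events. The intron lies in the 5' untranslated part of the mRNA, since exon 1 holds 0 coding bases and the start codon lies 2 nt into exon 2. No transcript of Coro1b in the annotation holds this intron inside an exon, and no exon of another gene lies in it.

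The local variation of Coro1b concerns the donors of the same exon 1. There are 3 donors, 7 nt apart, at 4148722, 4148729 and 4148736. The 14 bases between the outer donors are 2 copies of the unit gtgagcg, so each of the upstream and middle donors is followed by the same bases, beginning with GT. Among junctions that leave exon 1, the upstream donor reached a group PSI of 0.180 in AAV-GFP against 0.027 in AAV-Cre. The middle donor went from 0.213 to 0.469, with a deposited change of 0.250 (authors' deposited table). The downstream donor had 0.608 and 0.501 (authors' deposited table), where its deposited change was only -0.0166.

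In AAV-GFP the order was downstream, middle, upstream, with the last 2 close to each other, and in AAV-Cre the downstream and middle donors were close and the upstream donor was rare. A junction that leaves exon 1 for exon 3 had 0.001 in AAV-GFP against 0.002 in AAV-Cre. All 3 donors lie in the untranslated exon, so the choice among them leaves the coding sequence of the main transcript as it is. Retention of the intron was not part of this variation, so the tables measure different features of the same intron.

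**Figure D4:**
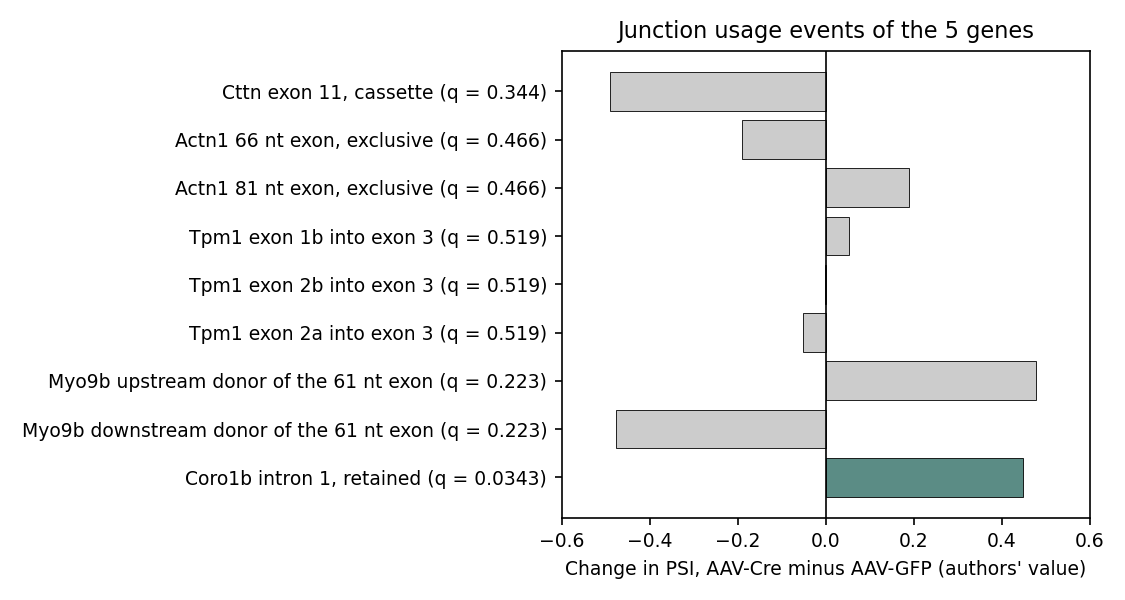
Change in PSI, AAV-Cre minus AAV-GFP (horizontal axis), for the junction usage events of the 5 genes with finite values assigned to a feature, with 1 bar per exon, donor or intron and the q-value of the event beside its name. Only the bar of Coro1b intron 1, at 0.449, belongs to an event that passed (coloured), while that of Cttn exon 11 reaches -0.489 with a q-value of 0.344.

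The short sequence CATC was searched on the transcript strand, overlaps allowed, in the exons printed above. It occurred 0 times in exon 11 of Cttn, in the 66 nt exon of Actn1 and in exon 2b of Tpm1. There was 1 match each in exon 10 of Cttn, the 81 nt exon of Actn1, exon 2a of Tpm1, both exons of Myo9b ahead of exon 16 and the 61 nt exon of Myo9b, and 0 in exons 8 and 9 of Cttn. Of all internal coding exons of the same length in the annotation, 46.3% held it at 111 nt, 45.5% at 126 nt, 35.6% at 81 nt, 29.4% at 66 nt, 36.8% at 90 nt, 45.2% at 114 nt and 22.7% at 61 nt. The printed alternative exons were grouped by the group PSI of their junctions in the local variations. Of those lower in AAV-Cre, exon 2a of Tpm1 and the 90 nt exon of Myo9b held a match. Exon 11 of Cttn and the 66 nt exon of Actn1 held none. For the 90 nt exon this rests on its junction to exon 16 alone. Of those higher in AAV-Cre, the 81 nt exon of Actn1 and exon 15 of Myo9b held a match while exon 2b of Tpm1 held none. These are matches of letters and do not show binding.

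The largest change of a variation ran from 0.213 to 0.703 in the 5 genes, and from 0.191 to 0.974 in the 439 variations outside dense windows. Of these 439, 11 and 14 had a larger change than the 2 variations of Cttn, 84 a larger one than Myo9b, 306 than Tpm1, 312 than Coro1b and 406 than Actn1. Of all 862 variations, 71 and 81 had a larger change than those of Cttn, 257 than that of Myo9b, 633 than Tpm1, 641 than Coro1b and 775 than Actn1. The median of the largest change was 0.343 over the 6 variations of the 5 genes, 0.304 over the 439 and 0.329 over all 862. Of the 439, 99.8% changed by at least 0.2, and of all 862, 95.2%. These places and medians are thus among listed variations that nearly all changed, not among all variations of the cells. None of the 6 lay in a dense window.

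**Figure D5:**
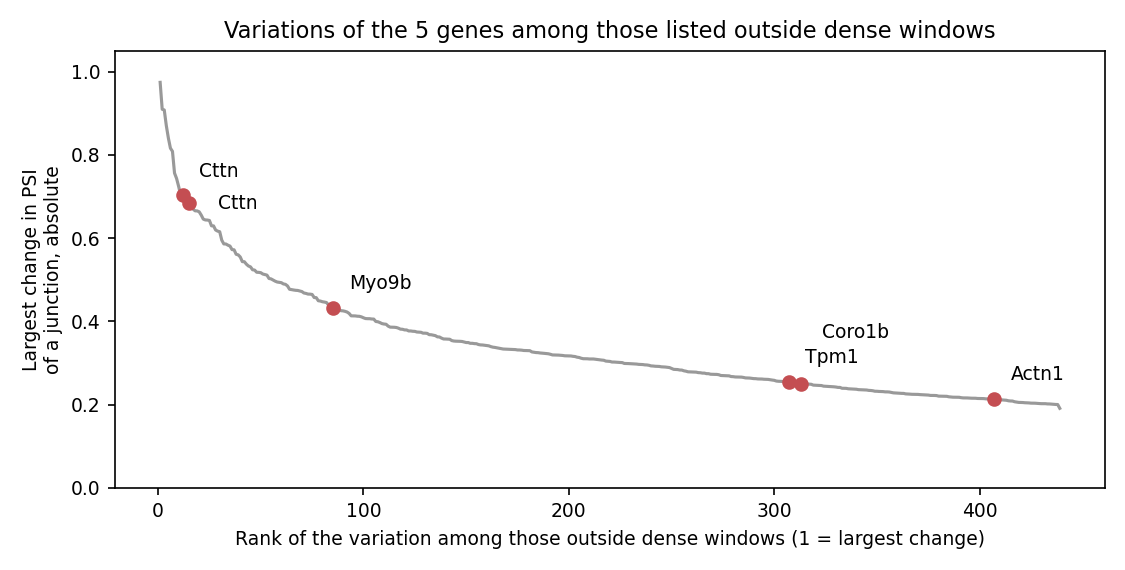
Largest absolute change in PSI of a junction (vertical axis) for each of the 439 variations outside dense windows, ordered from the largest (rank 1, left), as a grey line with the 6 variations of the 5 genes as points. Cttn stands near the left end at 0.703 and 0.684, Myo9b at 0.432, and Tpm1, Coro1b and Actn1 between 0.255 and 0.213 in the right part.

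Among 159 genes of the actin cytoskeleton, the 5 genes included, 9 were listed with local variations and all 9 had a changed one, as did every listed gene. The other 4 were Tagln2, which codes for transgelin-2, Pdlim5, a PDZ and LIM domain protein of actin bundles, Baiap2, which bends membranes at protrusions, and Dst, a linker of filaments. The most changed junction of Tagln2 went from 0.652 in AAV-GFP to 0.999 in AAV-Cre, and that of Pdlim5 from 0.987 to 0.703 (authors' deposited table). In Baiap2 it went from 0.456 to 0.166 and in Dst from 0.994 to 0.750 (authors' deposited table). By junction usage 14 genes of the list appeared at p below 0.05, of which 1, Coro1b, had an event that passed, beside 11.6% of all genes named there. The 9 genes that are not among the 5 had q-values from 0.155 to 0.590. All 5 genes described here were in both tables, and they were the only genes of the list that were. As they were chosen with earlier results of these tables known, this may reflect the choice and does not set them apart.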

How the data were processed

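RNA of cultured hepatocytes was sequenced from stranded mRNA libraries, per the labels' protocols. FastQC, STAR and mm10 are named in the submitters' processing notes, with no versions or settings. The authors deposited 2 tables. Per the file headers, the first follows VOILA, which displays MAJIQ output, and gives group PSI and change for each junction. The second lists JUM events under a p of 0.05, each with its p-value, q-value and change, per the file headers. The deposited change of the first table follows AAV-GFP minus AAV-Cre (r = 0.996 across junctions), so its sign was turned. JUM coordinates were matched to exon bounds of GENCODE vM21. No values per library were used here, so depth, replicate spread and leaving out a sample could not be examined, and any p-value or q-value is the authors' own and may measure technical spread. Local variations were called at a change of at least 0.2, and JUM events at a q-value of 0.05 or less with a change of at least 0.1. The members, gene lists and thresholds were chosen with earlier results of these data known. Named were the 5 genes, Srsf3, up to 12 other changed genes of the actin list, and Cd68, Acta2, Des and Tagln as markers, the last 4 named after their listing was seen. Exon sequences came from vM21 transcripts, and the Actn1 exons were aligned globally (match 1, mismatch -1, gap opening -2, extension -0.5). Counting was tested on simulated data. Python 3.11.15, numpy 2.4.6, Biopython 1.88 and matplotlib 3.10.9 were used.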

Additional observations from a re-analysis of the deposited data

How the results depend on the processing

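With a change of at least 0.3 in place of 0.2, 3 of the 6 local variations of the 5 genes were left (both of Cttn and that of Myo9b), beside 501 of all 862 (58.1%). At 0.1 all 6 were called, which had to be so since all 6 pass at 0.2. All 6 were also called with the difference of the group PSI values in place of the deposited change, and with annotated junctions only. The share of all listed variations was not counted at these settings. At p below 0.05 with a change of at least 0.1, 4 of the 7 junction usage events were called in place of 1, beside 321 of all 498 (64.5%), and with a q-value of 0.05 or less at any size, or of 0.1 or less, it was 1. Of the actin list 9 genes had a changed event in either table or in local variations alone, and 1 by junction usage alone. Without dense windows 99.8% of variations changed, against 95.2%. The junction that skips exon 11 of Cttn had a deposited change of 0.676 among the junctions that enter exon 12 and 0.703 among those that leave exon 10, since each share has its own whole. No paired analysis was possible because both tables hold 1 value per group or comparison and no values per library. For the same reason no library could be left out, and the depth behind each PSI is unknown.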

Other observations

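For the downstream donor of Coro1b the deposited change (-0.0166) and the difference of the deposited group values (-0.107) were 0.0904 apart, the widest gap among the 18 junctions of the 5 genes. The deposited column that its header calls a probability for changes of 0.2 or more held 0.0620 and 0.0205 for the junction that skips exon 11 of Cttn, whose change was 0.676 and 0.703. It held 1 for the inclusion junctions of Cttn, with changes of -0.684 and -0.698, and 1 and 0.998 for the junctions of Myo9b, but also 1 for the junctions of Cttn with a PSI near 0 in both groups. It was not used to call changes.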
